A study of Mus musculus with 39 samples.

Results

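The HOX genes are homeobox transcription factor genes that lie in 4 clusters and are numbered by paralog group from 1 to 13. Here they were taken as every gene whose symbol has the form Hoxa, Hoxb, Hoxc or Hoxd with a number, which gave 39 of the 34868 gene symbols in the deposited tables, 11 in Hoxa, 10 in Hoxb, 9 in Hoxc and 9 in Hoxd. The table of germ cell induction held 38 of them, and Hoxa13 is not analysed there. HOX proteins tell cells of the embryo where along the head to tail axis they lie. Genes with low numbers are used from the hindbrain downwards, genes with high numbers near the tail, in the limbs and in the urogenital tract, and many cell types keep the combination of the place they came from after they leave the embryo. Polycomb complexes hold the clusters silent, trithorax complexes keep them active, and retinoic acid, WNT signals and the CDX factors open them during gastrulation.

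The study turned granulosa cells, which nurse the oocyte in the ovarian follicle, into pluripotent lines and those into germ cells, with mice of strain C57BL6/CBA. Granulosa cells, fibroblasts from embryos, cells at day 16 of reprogramming, cells at day 28, cells at day 28 kept in 7 mM crotonic acid from day 16 on, and a female embryonic stem (ES) cell line of that strain had 2 libraries each. Lines derived from granulosa cells are called gPSC, and lines 2, 4, 10, 11, 15 and 16 gave 1 library each. A separate induction experiment had 3 libraries each of a female ES cell line (ESC), of line gPSC4, of epiblast-like cells (EpiLC) made from each in 2 days with bFGF and activin A, of primordial germ cell-like cells (PGCLC) made from each EpiLC in 4 more days with BMP4, SCF, EGF and LIF, and of primordial germ cells (PGC) from E12.5 embryos. The labels do not say that libraries of a group came from separate cultures or animals, so a p-value here rests on the spread among libraries, which may be technical. Each gPSC line is a single line with a single library.

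Levels are FPKM, fragments scaled to library depth and to transcript length, or in the induction table to the length of the coding sequence. They are set against each other between genes and between libraries of a table, but the FPKM of a library do not sum alike. In the reprogramming table they summed to 577897 in the first day 16 library and to 465782 in the second day 28 library without acid. Small differences between libraries therefore depend on the scaling. In the induction table the FPKM of ESC column 1 summed to 1055448, so the scale also differs between tables. Differences are log2 differences of FPKM + 1, which understate the change of low genes, tested with limma within a table, and a gene was called at a Benjamini-Hochberg adjusted p under 0.05 with a difference of at least 1. Levels set across tables are given side by side, without a test. Shares of all genes are shares of the genes that passed the filter of a table. HOX genes that did not pass it could not be called. In the induction table the values resolved into whole reads, with totals of 6080935 to 25109997 per library, of which the HOX genes took 58 to 136 reads in an EpiLC library and 256 to 870 in any other. The depth of the other tables is unknown. Of the marker lists, 6 pluripotency genes summed to 2249 to 3897 FPKM in ES cells and the gPSC lines and to 2.71 and 3.92 in granulosa cells. Of the extraembryonic endoderm genes 6 of 6 were at 1 FPKM or more at day 16, against 3 of 6 in granulosa cells. Their sums were closer, at 228 and 243 FPKM at day 16 and 183 and 161 in granulosa cells. The tissue is bulk, so fewer cells that use a gene and less RNA per cell cannot be told apart. HOX genes of a cluster lie on the same strand, so reads from a stretch where they overlap cannot be told apart by strand. By their annotated spans, Hoxa3 overlaps Hoxa4, Hoxa5 and Hoxa6, Hoxc5 overlaps Hoxc6, Hoxc8, Hoxc9 and Hoxc10, and Hoxd3 overlaps Hoxd4. The library kit is not stated to keep strand, so reads of an antisense gene and its partner cannot be told apart either.

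In GRCm38 the Hoxa cluster spans chromosome 6 from 52155590 to 52260880 on the minus strand, Hoxb chromosome 11 from 96194316 to 96368256, Hoxc chromosome 15 from 102921103 to 103036852 and Hoxd chromosome 2 from 74668310 to 74765142, the last 3 on the plus strand. The results below turn most often on the middle of Hoxd, where Hoxd10, Hoxd9 and Hoxd8 follow one another. Their promoters are shown because these 3 neighbours were among the highest HOX genes of granulosa cells and all 3 rose from EpiLC to PGCLC in both origins. The sequences are the 250 bases before each start in RefSeq (GRCm38.p6, plus strand, 5′ to 3′), for Hoxd10 chr2:74691641-74691890, for Hoxd9 chr2:74697513-74697762 and for Hoxd8 chr2:74704365-74704614. Capitals mark CG dinucleotides, the site of DNA methylation.
Hoxd10: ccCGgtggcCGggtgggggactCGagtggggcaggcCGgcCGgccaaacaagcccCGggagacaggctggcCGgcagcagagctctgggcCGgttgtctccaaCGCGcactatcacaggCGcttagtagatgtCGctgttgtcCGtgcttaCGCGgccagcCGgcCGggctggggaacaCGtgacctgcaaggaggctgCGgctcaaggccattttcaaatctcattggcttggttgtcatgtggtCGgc
Hoxd9: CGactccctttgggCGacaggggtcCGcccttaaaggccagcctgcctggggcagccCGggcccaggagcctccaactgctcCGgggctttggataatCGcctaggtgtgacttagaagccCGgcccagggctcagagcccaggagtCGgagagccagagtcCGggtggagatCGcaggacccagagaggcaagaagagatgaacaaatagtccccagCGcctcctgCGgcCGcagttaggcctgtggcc
Hoxd8: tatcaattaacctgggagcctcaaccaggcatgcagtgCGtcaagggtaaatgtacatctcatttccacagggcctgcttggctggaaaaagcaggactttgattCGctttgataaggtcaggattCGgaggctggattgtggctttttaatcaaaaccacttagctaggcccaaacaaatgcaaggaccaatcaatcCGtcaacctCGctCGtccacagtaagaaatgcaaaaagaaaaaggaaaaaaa
These windows held 20, 13 and 6 CG dinucleotides, against a median of 6 over 32851 promoters in the RefSeq table and a range of 2 to 35 over its 24 entries for 22 of the 39 HOX genes. The letters were searched on both strands for TATAAA (the TATA box), TGATNNAT (a form of the PBX and HOX dimer site), TTTATNG (a form of the CDX site) and GGCGGG (the core of the GC box), of which TATAAA and TTTATNG share letters and can match at the same place. None of the 3 windows held any of them. TATAAA was in 12.4% of all promoters and in 4 HOX entries, TGATNNAT in 7.68% and 4, TTTATNG in 9.81% and 2, and GGCGGG in 32.5% and 13.

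Granulosa cells used Hoxd from Hoxd3 to Hoxd11, Hoxc up to Hoxc10 and Hoxb up to Hoxb9, and had almost no Hoxa transcripts. Of the 39 genes, 15 were at 1 FPKM or more in one granulosa cell library and 14 in the other, which were deposited in different tables. The 11 Hoxa genes summed to 0.14 FPKM in the first library and 0.08 in the second, of HOX totals of 83.9 and 76.1. Hoxd held 40.3% and 42.6% of those totals, Hoxc 34.9% and 34.3%, and Hoxb 24.7% and 23.0%.

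The highest genes of granulosa cells were the same in both libraries. Hoxb9, a gene of the thoracic level that also acts in mammary gland development, was at 14.2 and 11.4 FPKM. Hoxd10, known for the lumbar level and the limb, was at 10.46 and 11.3 FPKM, and Hoxc6, a thoracic gene, at 10.7 and 9.0 FPKM. Those 3 led the order, and the libraries disagreed on which of Hoxd10 and Hoxc6 was higher. Hoxd9 was at 7.8 and 6.93 FPKM, Hoxd8 at 7.63 and 7.15, and Hoxc10 at 5.05 and 4.63. The genes with the highest number at 1 FPKM or more were Hoxb9, Hoxc10 and Hoxd11, the last at 3.48 and 2.89 FPKM. Beyond them Hoxb13, Hoxc11, Hoxc12, Hoxd12 and Hoxd13, the most tailward genes, were listed at 0 in both libraries and Hoxc13 at 0.02 and 0 FPKM.

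Fibroblasts carried another code, with all 4 clusters in use and Hoxd low above Hoxd8. In the table that held 1 fibroblast, 1 granulosa cell and 2 ES libraries, 25 HOX genes of the fibroblast library were at 1 FPKM or more and the HOX total was 165 FPKM. Hoxa gave 23.0% of it, Hoxb 32.5%, Hoxc 37.1% and Hoxd 7.42%. The highest gene of each cluster was Hoxa5 (9.35 FPKM, known for lung and sternum), Hoxb9 (19.7), Hoxc8 (20.6, a thoracic gene) and Hoxd8 (7.83). The genes with the highest number at 1 FPKM or more were Hoxa10 (3.49), Hoxb9, Hoxc10 (6.66) and Hoxd8. The second fibroblast library, in a table of its own, had 24 genes at 1 FPKM or more, with Hoxa5 at 12.3, Hoxb9 at 27.9, Hoxc8 at 26.7 and Hoxd8 at 11.6 FPKM. It went 1 gene further in Hoxa, with Hoxa11 at 1.51 FPKM, and 2 genes further in Hoxd, with Hoxd9 at 2.27 and Hoxd10 at 1.33 FPKM. It had Hoxb2 at 0.37 FPKM where the first library had 9.23.

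**Figure D1:**
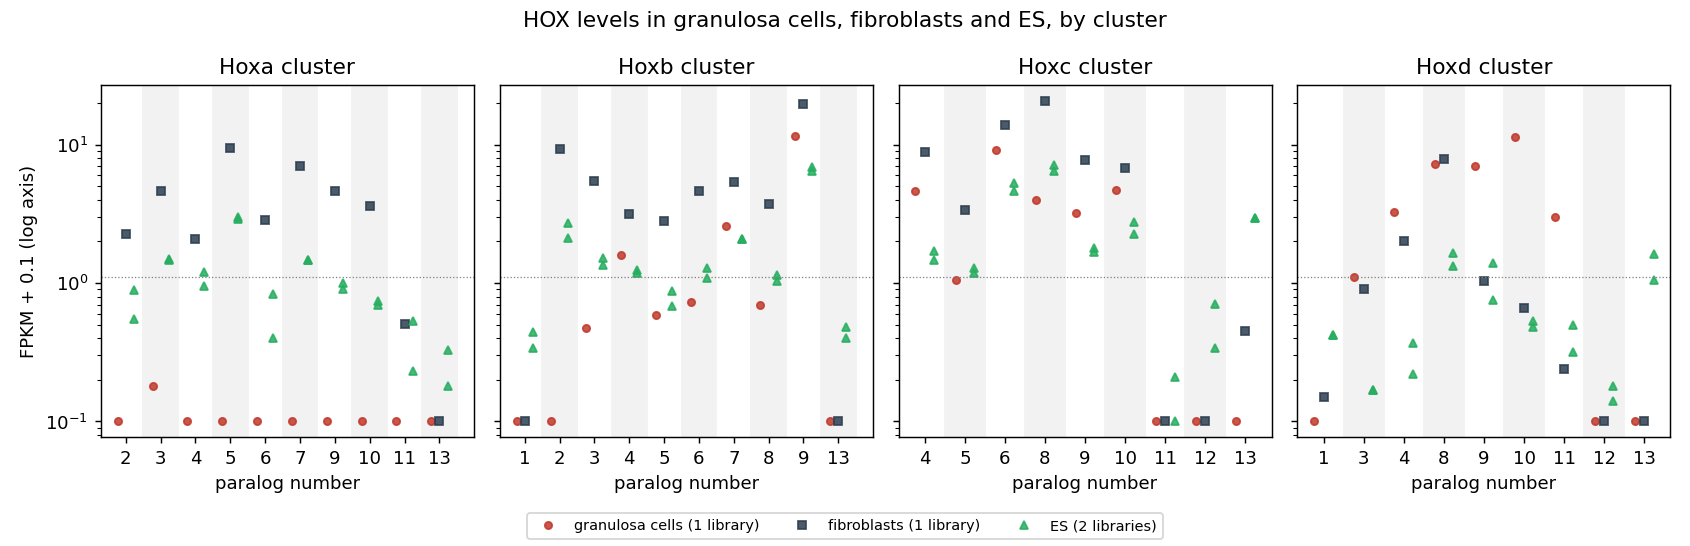
Each point is 1 library of the table that held granulosa cells, fibroblasts and ES cells; the y axis is FPKM + 0.1 on a log axis, the x axis the paralog number within each of the 4 clusters, and the dotted line stands at 1 FPKM. Granulosa cells lie at or near the floor across Hoxa and above the fibroblast at Hoxd9, Hoxd10 and Hoxd11, and ES cells lie above both at Hoxc13 and Hoxd13.

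With 1 library on each side there was no test, and a gene was counted when its level differed by at least 1 log2. Of all genes 29.2% did so between granulosa cells and the fibroblast, 17.5% higher and 11.7% lower in granulosa cells. Of the 31 HOX genes at 1 FPKM in some library 20 did, 3 higher and 17 lower. The median difference was −1.13 over these HOX genes and 0.20 over all genes. The 3 higher genes were Hoxd10 (11.3 against 0.56 FPKM, log2 difference 2.98), Hoxd9 (6.93 against 0.94, 2.03) and Hoxd11 (2.89 against 0.14, 1.77). In the second fibroblast library, from the other table, these 3 stood at 1.33, 2.27 and 0.43 FPKM, also below granulosa cells. Among the 17 lower genes the largest differences were those of Hoxa5 (0 against 9.35 FPKM, −3.37), Hoxb2 (0 against 9.23, −3.35, a gene of the hindbrain that was at 0.37 FPKM in the second fibroblast library) and Hoxa7 (0 against 6.87, −2.98, a gene of the trunk vertebrae). Hoxd8, next to Hoxd9, was at 7.15 in granulosa cells and 7.83 FPKM in the fibroblast, a difference of −0.12.

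ES cells of the same table had low levels of many HOX genes. The HOX totals of the 2 ES libraries were 55.5 and 56.0 FPKM, and their clusters shared it as 22.3% Hoxa, 29.97% Hoxb, 38.8% Hoxc and 8.91% Hoxd on average, shares that lay within 3 percentage points of those of the fibroblast library. Of all genes 38% differed by 1 log2 or more between ES and granulosa cells, 19.9% higher and 18.2% lower in ES cells. Of the 31 HOX genes that passed the same filter 13 did, 7 higher and 6 lower in ES cells. Lower were Hoxd10, Hoxd9, Hoxd4, Hoxd8, Hoxd11 and Hoxc4, led by Hoxd10 at 0.38 and 0.43 FPKM (−3.13). Among the higher genes were Hoxc13, Hoxa5, Hoxb2, Hoxa7, Hoxd13 and Hoxa3. The fibroblast library exceeded ES cells by 1 log2 or more for 21 of the 31 HOX genes, and ES cells exceeded it for 2. Of all genes 34.9% were past that difference, 21.2% higher and 13.7% lower in ES cells.

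The 2 genes above the fibroblast were the most tailward of their clusters. Hoxc13, which acts in hair and nail formation, was at 2.87 and 2.88 FPKM in ES cells, 0 in granulosa cells and 0.35 in the fibroblast (1.52 against the fibroblast). Hoxd13, which shapes digits and the urogenital tract, was at 1.53 and 0.95 FPKM in ES cells and at 0 in both somatic libraries (1.15). Over the 25 HOX genes at 1 FPKM or more in the fibroblast library, the ES level was a median of 27.3% of the fibroblast level (range 10.3% to 164%, with 1 gene over 100%). The fibroblast markers, measured the same way, gave a median of 8.83% over 12 genes (range 2.84% to 19.8%), and their summed level was 994 to 1070 FPKM in ES cells, 7988 in the fibroblast and 49.0 in granulosa cells. Of the 14 HOX genes under 1 FPKM in the fibroblast, 11 were higher in ES cells, 2 of them at 1 FPKM or more. The part of fibroblast transcripts in the ES levels was not tested.

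At day 16 of reprogramming the highest HOX genes were still those of granulosa cells, and more HOX genes were at 1 FPKM or more. The reprogramming table holds no granulosa cell library, so the values are set beside those above without a test. The HOX totals were 148 and 136 FPKM, against 83.9 and 76.1 in granulosa cells, and 22 and 23 HOX genes were at 1 FPKM or more. Hoxb9 was at 21.5 FPKM in both libraries, Hoxd10 at 19.5 and 13.6, Hoxd9 at 15.8 and 17.2, Hoxc6 at 13.7 and 11.97, and Hoxd8 at 11.7 and 10.2. These 5 had been the highest of granulosa cells too. Hoxd gave 40.1% ± 0.591 (SD, n = 2) of the HOX total. Hoxa, near 0 in granulosa cells, summed to 9.22 and 9.95 FPKM, led by Hoxa10 at 3.03 and 3.26 and Hoxa11 at 1.39 and 1.94, both genes of the reproductive tract and limb. Hotairm1, an antisense RNA of the Hoxa cluster, was at 10.9 and 6.75 FPKM against 0.48 in a granulosa cell library. Granulosa markers summed to 1295 and 1200 FPKM at day 16 and to 8287 and 7487 in granulosa cells. At day 16 4 of the 8 were at 1 FPKM or more, and Fshr, Cyp19a1, Amh and Nr5a2 were under 0.5. In granulosa cells 6 of 8 were at 1 FPKM or more. Fibroblast markers summed to 445 and 587 FPKM at day 16, with 10 of 12 at 1 FPKM or more and Dpt under 0.5. The part of either list in the HOX levels was not tested.

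From day 16 to day 28 without crotonic acid no HOX gene was called, while 5.34% of all genes were, 4.51% higher and 0.829% lower. Of the 39 HOX genes 27 passed the filter. By limma 12 of these had an unadjusted p under 0.05, as had 5371 of all 13266 genes tested. An adjusted p under 0.05 with a difference short of 1 log2 was reached by 8 HOX genes. The count of all genes that reached it is not given here. The direction differed among the 8. Hoxb9 was at 21.5 FPKM in both day 16 libraries and at 12.4 and 12.8 at day 28, a log2 difference of −0.73 (SE 0.086, adjusted p = 0.0037). Hoxa11 went the same way, from 1.39 and 1.94 to 0.84 and 0.8 FPKM (−0.54, adjusted p = 0.037). Neither gene's groups overlapped, which is no check, because the 8 genes were picked by this same comparison.

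The other 6 genes had positive differences. Hoxd3 was at 0.92 and 1.59 FPKM at day 16 and at 2.96 and 3.17 at day 28 (0.87, SE 0.16, adjusted p = 0.016), and without the second day 16 library the difference was 1.08, which was called, with the lone day 16 library assumed to vary like the other groups. Hoxc4 was at 2.68 and 3.42, then 5.49 and 6.11 FPKM (0.75, adjusted p = 0.013), and Hoxa7 at 0.59 and 0.62, then 1.64 and 1.75 (0.75, adjusted p = 0.0079). Their groups were apart at levels of a few FPKM, again no check, because they were picked by the same comparison. Hoxd4, which overlaps Hoxd3, was at 4.51 and 5.23, then 8.09 and 8.75 FPKM (0.68, adjusted p = 0.021). Hoxc13 was at 2.11 and 1.78, then 3.22 and 4.2 FPKM (0.67, adjusted p = 0.022), and Hoxb13, a gene of the tail and prostate, at 0.67 and 0.42, then 1.08 and 1.38 (0.53, adjusted p = 0.040). Of the other high genes, Hoxd10 was at 19.5 and 13.6 FPKM at day 16 and 11.7 and 11.8 at day 28 (−0.44, adjusted p = 0.13), apart but with a wide spread at day 16. Hoxd9 was at 15.8 and 17.2 FPKM at day 16 and 17.1 and 18.3 at day 28, and Hoxc6 at 13.7 and 11.97, then 14.5 and 15.2.

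The HOX total was 148 and 136 FPKM at day 16 and 138 and 148 at day 28, a ratio of the means of 1.01 that became 0.878 under median-ratio scaling. The median difference over all genes was 0.15 and moved to −0.02 under that scaling, so the HOX median of 0.05 was smaller than that of all genes. Of the genes called, 84.5% were higher at day 28, and 70.3% and 65.5% under median-ratio and quantile scaling. Of the lists of genes that act with or on HOX genes, 0 of 11 TALE cofactors, 0 of 31 Polycomb genes, 0 of 14 trithorax genes and 0 of 6 genes beside the clusters were called. Of 11 upstream factors and signals tested, 1 rose, Cdx2, from 0.155 to 1.41 FPKM (1.06, adjusted p = 0.0059). Granulosa markers summed to 527 and 559 FPKM at day 28 and fibroblast markers to 720 and 756. Of 8 granulosa markers 4 were at 1 FPKM or more in both day 28 libraries, and Fshr and Cyp19a1 were under 0.5.

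**Figure D2:**
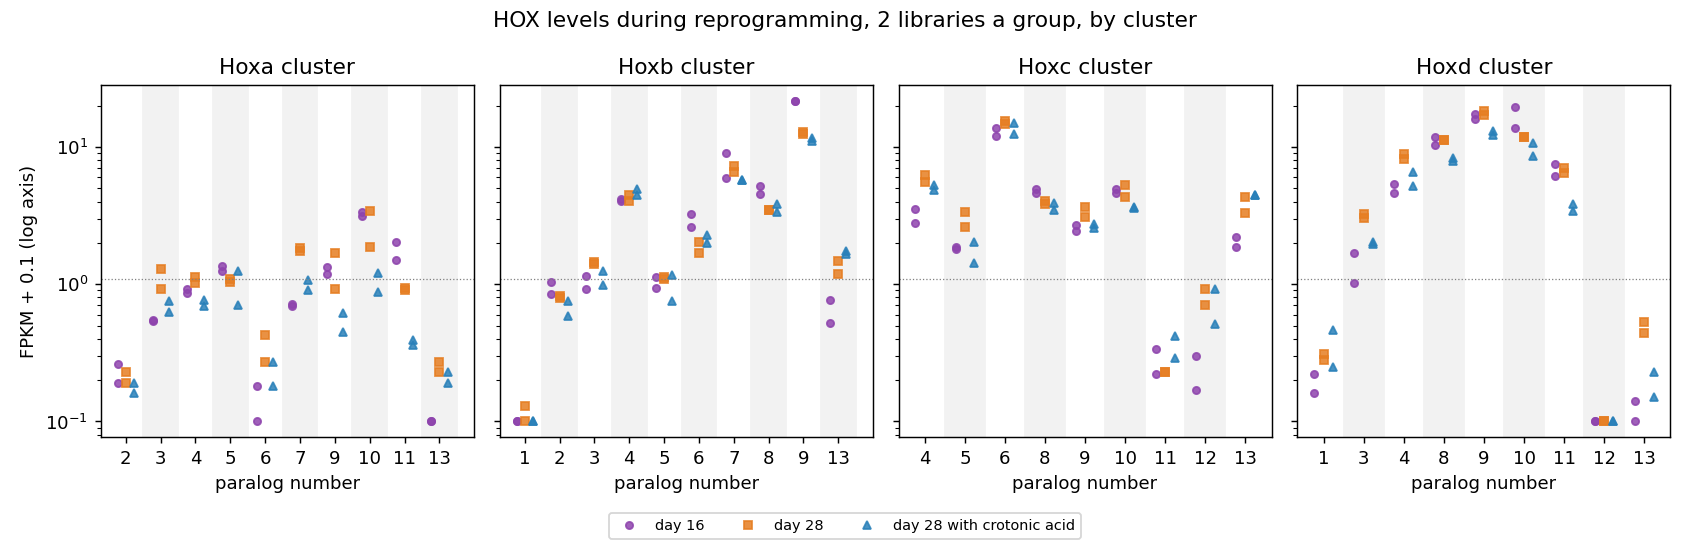
Each point is 1 library of the reprogramming table, 2 a group; the y axis is FPKM + 0.1 on a log axis, the x axis the paralog number within each cluster, and the dotted line stands at 1 FPKM. The 3 groups lie close together, with Hoxb9, Hoxc6, Hoxd9 and Hoxd10 highest in all of them, and the day 28 libraries with crotonic acid lie lowest at Hoxa10, Hoxa11 and Hoxd11.

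At day 28 most HOX genes had negative differences in cells with crotonic acid against cells without it, and none was called, against 2.05% of all genes, 0.852% higher and 1.2% lower. Of the 27 HOX genes tested 22 had a negative difference, 11 an unadjusted p under 0.05 and 2 an adjusted p under 0.05. Of all 13266 genes tested 2872 had an unadjusted p under 0.05, and the count at an adjusted p under 0.05 is not given here. The HOX total was 118 and 110 FPKM with the acid and 138 and 148 without it, a ratio of the means of 0.796, or 0.836 under median-ratio scaling. The median difference was −0.24 over the HOX genes and −0.05 over all genes. Hoxd11 was at 3.74 and 3.3 FPKM with the acid and at 6.32 and 6.96 without it (−0.76, SE 0.13, adjusted p = 0.026), and Hoxd9 at 12.96 and 12.1 against 17.1 and 18.3 (−0.46, SE 0.096, adjusted p = 0.042). In both genes the groups were apart, by less than 1 log2, which is no check, because they were picked by this same comparison.

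Genes whose adjusted p was over 0.05 included Hoxa10, at 0.78 and 1.1 FPKM with the acid and 1.78 and 3.34 without it (−0.85, adjusted p = 0.085), Hoxa11, at 0.26 and 0.29 against 0.84 and 0.8 (−0.51, adjusted p = 0.084), and Hoxd8, at 8.25 and 7.79 against 11.1 in both (−0.43, adjusted p = 0.071). The Hoxa sum was 5.59 and 6.13 FPKM with the acid and 9.08 and 12.4 without it. Hoxb9, at 11.6 and 11.03 against 12.4 and 12.8 FPKM, and Hoxc6, at 14.9 and 12.4 against 14.5 and 15.2, were closer. Among the lists, 1 of 11 upstream genes rose with the acid, Cdx1, a direct activator of HOX genes in the embryo, from 0.06 to 13.2 FPKM (3.74, adjusted p = 0.00086). None of 11 TALE cofactors, 31 Polycomb, 14 trithorax genes and 6 genes beside the clusters was called. Fibroblast markers summed to 411 and 423 FPKM with the acid and to 720 and 756 without it, and granulosa markers to 615 and 647 against 527 and 559. With the acid 4 of 8 granulosa markers were at 1 FPKM or more, and Fshr, Cyp19a1 and Amh were under 0.5. The 6 pluripotency genes summed to 75.6 and 79.5 FPKM with the acid and to 20.1 and 23.6 without it. Their part in the HOX differences was not tested.

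In the gPSC lines Hoxd9, Hoxd10 and Hoxd11 of granulosa cells had fallen under 1 FPKM, Hoxb9 and parts of Hoxc were reduced, and low levels of other HOX genes had appeared. Of the 39 HOX genes 26 passed the filter. Against the 1 granulosa cell library of the same table, 13 of these 26 were called, 4 higher and 9 lower. Of all genes that passed, 39.5% were called, 21.8% higher and 17.7% lower. The median difference was −0.16 over the 26 HOX genes and 0.09 over all genes. The granulosa cell library is assumed to vary as the 6 lines do, with no replicate check of it. In all 13 genes it lay outside the range of the lines, which is no check, because the genes were chosen by this same difference.

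The 5 lower genes with the smallest p were all in Hoxd. Hoxd10 was at 0.47, 0.16, 0.28, 0.34, 0.21 and 0.16 FPKM in lines 2, 4, 10, 11, 15 and 16 and at 10.46 in granulosa cells (−3.18, SE 0.15, adjusted p = 1.4e-06). Hoxd9 was at 0.85, 0.52, 0.82, 0.43, 0.59 and 0.58 FPKM in the same order, against 7.8 (−2.44, SE 0.16, adjusted p = 6.9e-06). Every line was under 1 FPKM for both. Hoxd11 averaged 0.227 FPKM over the lines against 3.48 (−1.87, adjusted p = 7e-06), Hoxd4 0.265 against 3.12 (−1.71, adjusted p = 2.4e-05) and Hoxd3 0.122 against 1.25 (−1.01, adjusted p = 7.3e-05). For Hoxd3 the difference was −0.99 without line 15 or without line 16, which ended the call.

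The other 4 lower genes kept part of their level. Hoxb9 was at 5.42, 3.02, 4.96, 2.71, 3.35 and 2.66 FPKM in the 6 lines against 14.2 (−1.73, SE 0.32, adjusted p = 0.0017), and Hoxd8 at 3.16, 1.48, 2.54, 1.85, 1.44 and 1.59 against 7.63 (−1.55, adjusted p = 0.0018). Lines 2 and 10 were the highest for both. Hoxc4, which acts in the cervical region and the oesophagus, averaged 1.36 FPKM against 4.87 (−1.35, adjusted p = 0.0054), and Hoxc10 1.59 against 5.05 (−1.26, adjusted p = 0.0066). Hoxc6 averaged 5.49 FPKM against 10.7, with a difference of −0.89 short of 1 log2.

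The 4 higher genes were at or near 0 in granulosa cells. Hoxa5 was at 2.37, 1.45, 2.68, 0.87, 1.32 and 1.19 FPKM in the 6 lines and listed at 0 in granulosa cells (1.36, SE 0.34, adjusted p = 0.0078), and Hoxb2 at 2.82, 1.21, 2.36, 1.35, 1.4 and 1.29 against 0.07 (1.32, adjusted p = 0.0053). Hoxc13 was at 1.98, 1.2, 1.88, 1.43, 1.21 and 1.26 FPKM against 0.02 (1.28, SE 0.20, adjusted p = 0.00061), and Hoxd13 at 1.78, 0.98, 1.32, 1.07, 0.78 and 0.94 against 0 (1.09, adjusted p = 0.0027). Lines 2 and 10 were the highest for Hoxa5, Hoxb2, Hoxc13 and Hoxd13 as well. The 3 libraries of gPSC4 in the induction experiment are set beside these without a test. There Hoxa5 was at 0, 0 and 0.565 FPKM, Hoxb2 at 0.16, 0.347 and 0.689, and Hoxd13 at 0.167, 0.217 and 0. Hoxc13 was at 9.38, 6.97 and 6.6 FPKM there. By cluster, Hoxd gave 12.53% ± 1.21 (SD, n = 6) of the HOX total of the lines and 40.3% in granulosa cells, and Hoxa was 17.0% ± 0.965 against 0.167%. Hoxb was 30.8% ± 0.976 against 24.7%, and Hoxc 39.7% ± 0.495 against 34.9%.

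Levels in the lines moved with fibroblast markers. The HOX totals of lines 2, 4, 10, 11, 15 and 16 were 58.5, 35.2, 54.7, 29.96, 33.0 and 30.7 FPKM, and the 12 fibroblast markers summed to 1918, 1158, 1742, 909, 1044 and 1075 FPKM. Lines 2 and 10 were the highest of both. All 12 markers were at 1 FPKM or more in every line, against 5 of 12 and a sum of 45.7 FPKM in granulosa cells. With lines 2 and 10 left out, a choice made after the data were seen, 14 HOX genes were called, 3 higher and 11 lower, and Hoxd13 was at 0.96, short of 1 log2. The part of fibroblast transcripts in the HOX levels of the lines was not tested. Granulosa markers summed to 34.9 to 55.9 FPKM in the lines, with Fshr at 0 in all 6 and Foxl2 at 0.02 to 0.25 FPKM.

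**Figure D3:**
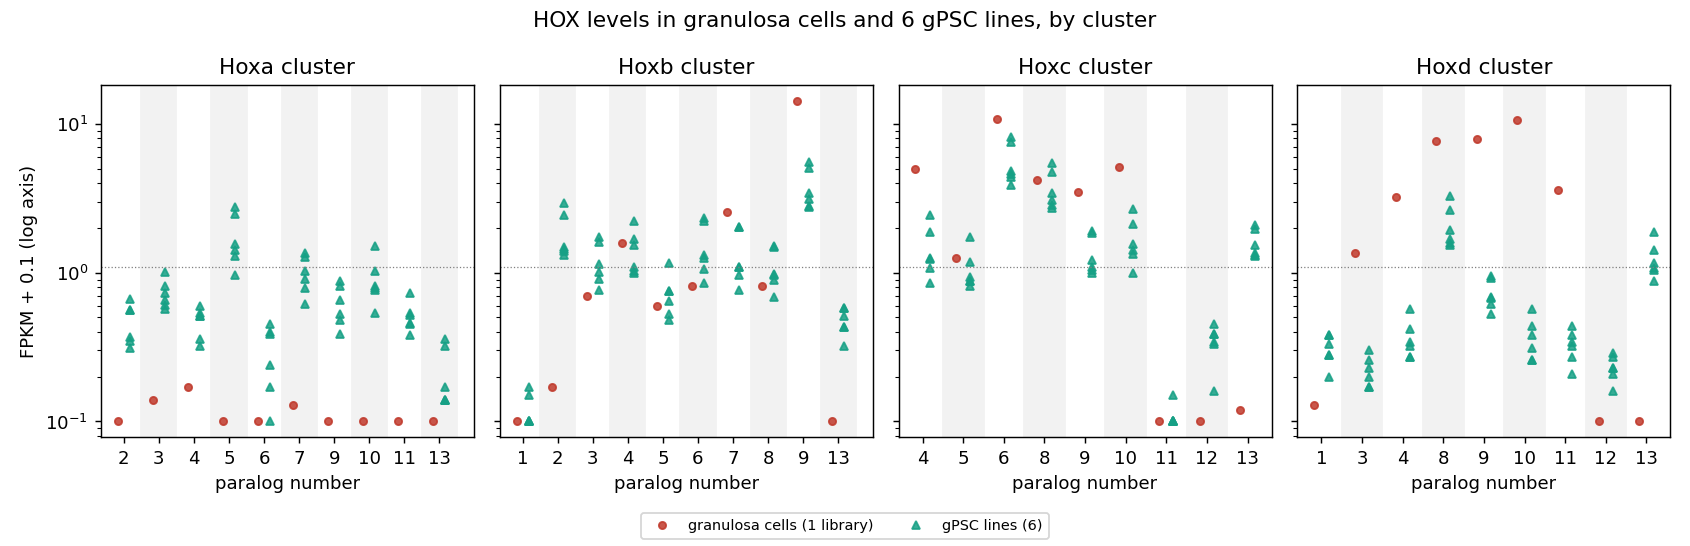
Each point is 1 library, the granulosa cell library or 1 of 6 gPSC lines; the y axis is FPKM + 0.1 on a log axis, the x axis the paralog number within each cluster, and the dotted line stands at 1 FPKM. The lines lie below granulosa cells from Hoxd3 to Hoxd11 and at Hoxb9, and above them at most Hoxa genes and at Hoxc13 and Hoxd13.

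Of the genes that act with or on HOX genes, 13 of 31 Polycomb genes rose in the lines and 5 fell, led by Phc1 (142 against 8.39 FPKM, 3.92), Cbx7 (53.7 against 4.82, 3.23) and Eed (90.8 against 10.51, 2.99), all parts of the repressive complexes. Trithorax genes counted 3 higher and 1 lower of 14, with Wdr5 at 2.28. Of 11 TALE cofactors, which bind DNA together with HOX proteins, 3 rose and 2 fell, among them Tgif1 (1.46) and Meis3 (−1.64). Of 8 upstream genes 4 rose and 2 fell, among them Cdx1 (3.93 FPKM on average against 0, 2.20) and Cyp26b1, an enzyme that degrades retinoic acid (0.692 against 31.7, −4.28). Of 9 genes beside the clusters Hotairm1 and Skap2 rose by 1.42 and 1.37, and Calcoco1, beside Hoxc, fell by 2.13 on the log2 scale.

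In the induction experiment the HOX transcripts of ESC and gPSC4 came mostly from Hoxc. Among 38 genes, of which 19 passed the filter, none was called between ESC and gPSC4 by limma or by voom. By limma 1 of the 19 (Hoxc6) had an unadjusted p under 0.05, against 592 of all 14059 genes tested. Of all genes 0.00711% were called. The HOX total was 34.4 ± 2.73 FPKM in ESC and 31.8 ± 3.51 in gPSC4 (SD, n = 3), and Hoxc gave 62.3% ± 2.53 and 65.7% ± 2.46 of it. Its most tailward gene, Hoxc13, had the highest average of the HOX genes in both. Hoxc13 was at 8.35, 6.01 and 7.37 FPKM in ESC and at 9.38, 6.97 and 6.6 in gPSC4. Hoxc12, its neighbour, was at 3.24, 2.44 and 3.11 in ESC and at 2.32, 3.6 and 2.83 in gPSC4, and Hoxc4, at the other end of the cluster, at 4.64, 5.22 and 4.8 and at 5.13, 5.4 and 4.97. The 2 origins overlapped for all 3 genes. Hoxd10 was at 0.332 FPKM or less in all 6 of these libraries, and the Hoxd sum was 1.52 and 1.16 FPKM on average.

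Most of these transcripts were lost in EpiLC. The HOX total was 10.4 ± 0.432 FPKM in EpiLC from ESC and 10.2 ± 1.57 in EpiLC from gPSC4 (SD, n = 3), and the Hoxc sum was 1.89 and 2.05 FPKM against 21.4 and 20.9 before. From ESC, 6 of the 19 HOX genes tested fell and none rose, with 21% of all genes tested called, 9.64% higher and 11.3% lower. From gPSC4, 5 of the 19 fell and none rose, with 20.4% called, 10.1% higher and 10.3% lower. In the ESC origin the median difference was −0.70 over the HOX genes tested and −0.00 over all genes, and in the gPSC4 origin −0.55 and 0.01.

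Hoxc13 was at 0.926, 0.332 and 0.207 FPKM in EpiLC from ESC (−2.49, SE 0.26, adjusted p = 1.9e-07) and at 0.309, 0.97 and 1.02 in EpiLC from gPSC4 (−2.31, adjusted p = 5.4e-07). Hoxc12 was at 0, 0 and 0.081 and at 0, 0.126 and 0 FPKM (−1.93 and −1.90, adjusted p = 3.3e-08 and 4.2e-08), and Hoxc4 at 0, 0 and 0.343 and at 0, 0.803 and 0 (−2.41 and −2.34, adjusted p = 9e-06 and 1.3e-05). In these 3 genes every EpiLC library lay below every stem cell library, which describes called genes and is no check. Hoxb9 averaged 0.0727 FPKM against 1.86 from ESC (−1.33, adjusted p = 0.0076), a difference of −0.98 that was not called without ESC column 1. From gPSC4 it had no read in any of the 3 EpiLC libraries against 53 reads over gPSC4 (adjusted p = 0.0025), at least 16.8-fold lower, with the floor set at 3 reads over the group.

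Genes called in 1 origin alone were Hoxc6 (−1.06, adjusted p = 0.00076) and Hoxc9 (−1.02, adjusted p = 0.013) from ESC and Hoxc5 (−1.21, adjusted p = 0.031) from gPSC4. Each lost its call when some library was left out: Hoxc6 without the first ESC EpiLC library (−0.94), Hoxc9 without ESC EpiLC replicate 2 (−0.99) or 3 (−0.99) or without ESC column 3 (−0.82), and Hoxc5 without gPSC4 replicate 1 (−1.01), gPSC4 EpiLC replicate 1 (−1.04) or 2 (−1.24). Between EpiLC of the 2 origins no HOX gene was called by limma, where 0.0711% of all genes were, 0.0427% higher and 0.0285% lower. By limma no HOX gene tested had an unadjusted p under 0.05, against 1202 of all 14059 genes. Voom on the recovered reads called no HOX gene. Whether the step from stem cells to EpiLC differed by origin was not tested. Hoxa7, the highest Hoxa gene of ESC and gPSC4, was at 2.36, 0.714 and 1.98 FPKM in EpiLC from ESC against 1.91, 3.11 and 2.13 in ESC. From gPSC4 it was at 2.1, 1.85 and 1.58 FPKM against 2.34, 1.61 and 0.266 in gPSC4. The groups overlapped in both origins for Hoxa7 and for the Hoxa sum, which averaged 5.82 FPKM in EpiLC and 5.78 in ESC, and 5.04 in EpiLC and 3.56 in gPSC4. The fibroblast marker sum was 336 to 350 FPKM in ESC and 254 to 268 in gPSC4, and 20.5 to 29.9 and 16.3 to 20.4 in their EpiLC, which moved the same way as the HOX total. Its part was not tested.

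Of 13 upstream genes 3 rose and 4 fell from ESC to EpiLC, and 3 rose and 5 fell from gPSC4. The largest difference was that of Cdx1, from 85.2 to 1.51 FPKM in the ESC origin (−5.07, adjusted p = 1.1e-10) and from 118 to 0.773 in the gPSC4 origin (−6.10, adjusted p = 7.3e-12). Cdx4, another activator of HOX genes, rose from 0.228 to 4.00 FPKM from ESC (1.90) and from 0.180 to 4.88 from gPSC4 (2.34). Meis2 fell by 2.06 and 2.33 on the log2 scale among the 11 TALE cofactors, of which 3 rose and 2 fell from ESC and 3 rose and 3 fell from gPSC4. Polycomb genes counted 2 and 3 higher and none lower of 32, trithorax genes 1 higher in each origin with 2 and 1 lower of 14, and none of 7 genes beside the clusters was called.

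**Figure D4:**
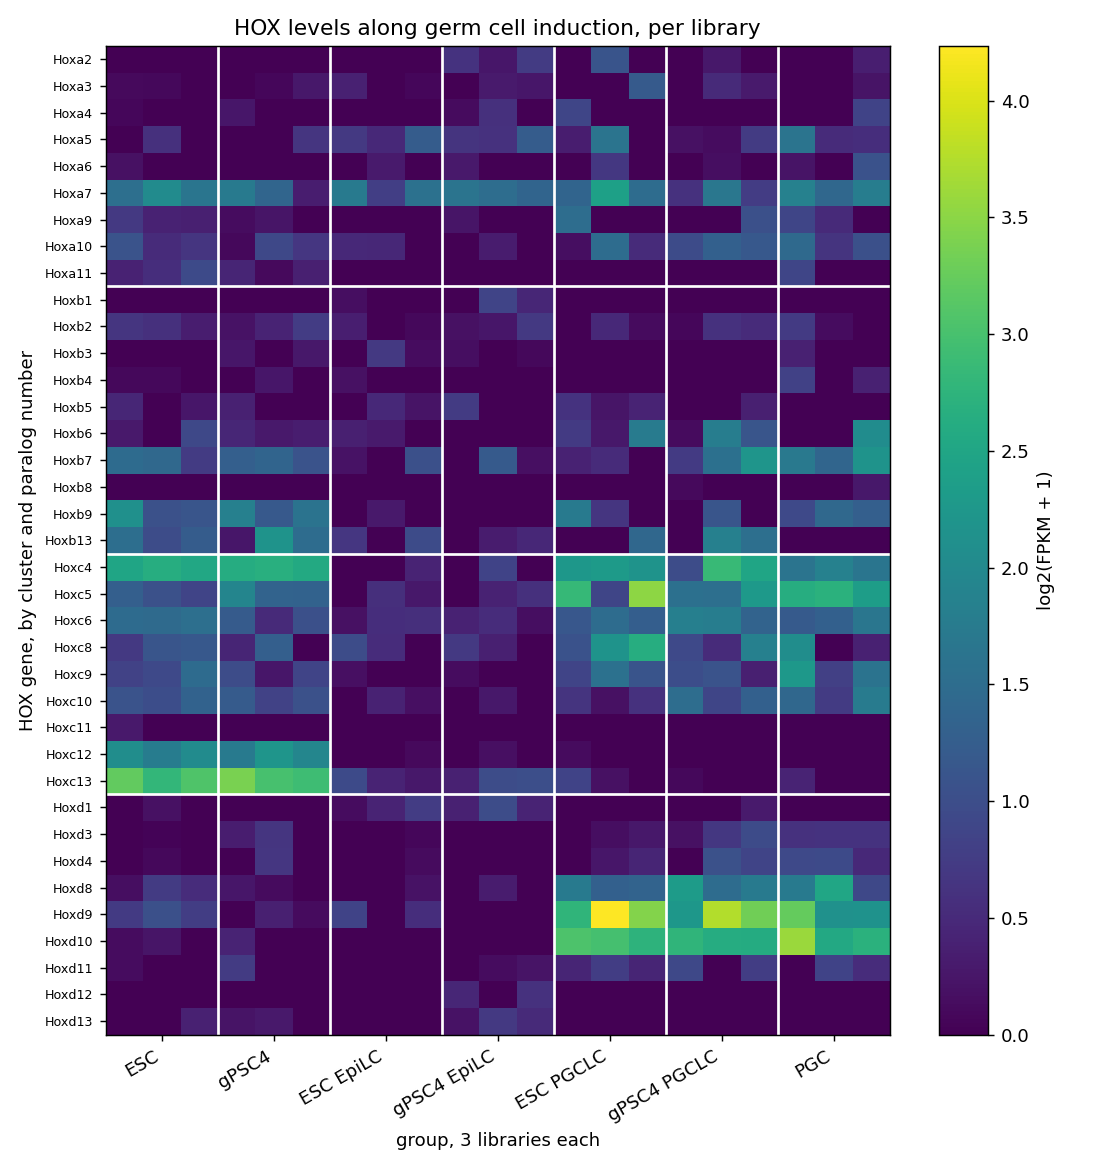
Each column is 1 of 21 libraries of the induction table, 3 a group, and each row 1 of 37 HOX genes in order of cluster and paralog number; colour gives log2(FPKM + 1). Hoxc4, Hoxc12 and Hoxc13 are bright in ESC and gPSC4 and dark in EpiLC, and Hoxd8, Hoxd9 and Hoxd10 are bright in PGCLC and PGC alone.

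PGCLC of both origins gained the Hoxd middle. The results on PGCLC and PGC rest on libraries that were about as alike across groups as within them and that carried transcripts of gonad soma and blood, with values given after the PGC results. Hoxd10 had no read in any of the 6 EpiLC libraries. It was at 7.25, 6.94 and 5.64 FPKM in PGCLC from ESC (103, 50 and 64 reads) and at 5.83, 5.15 and 5.06 in PGCLC from gPSC4 (100, 66 and 66 reads), at least 69.2-fold and at least 63.4-fold higher than EpiLC with a floor of 3 reads over the group (adjusted p = 2.3e-09 and 9.4e-09). No PGCLC library overlapped an EpiLC or stem cell library, which describes a called gene and is no check. Hoxd9 was at 0.796, 0 and 0.468 FPKM in EpiLC and 5.79, 17.8 and 9.9 in PGCLC from ESC (3.01, SE 0.39, adjusted p = 1.6e-06). In the gPSC4 origin it had no read in EpiLC and was at 3.75, 12.4 and 8.91 FPKM in PGCLC (adjusted p = 1.1e-06), at least 92.7-fold higher. The second PGCLC library of each origin was the highest for Hoxd9 and neither was the highest for Hoxd10.

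Hoxd8, the next gene, was at 2.32, 1.47 and 1.55 FPKM in PGCLC from ESC against 0.157 or less in EpiLC (1.39, SE 0.31, adjusted p = 0.00073), and at 3.98, 1.84 and 2.34 in PGCLC from gPSC4 against 0.245 or less (1.75, adjusted p = 7.5e-05). The neighbours on either side were lower, did not pass the filter and were not tested. Hoxd11 was at 0.356, 0.702 and 0.357 FPKM from ESC and 0.886, 0 and 0.698 from gPSC4, Hoxd4 at 1.06 or less, and Hoxd12 and Hoxd13 had no read in any PGCLC library. From ESC, Hoxd11 had 14 reads in PGCLC and none in EpiLC, at least 4.46-fold higher. From gPSC4, Hoxd3 had 29 reads and Hoxd4 18 with none in EpiLC, at least 7.93-fold and at least 4.92-fold higher. In the other direction, Hoxd1 had 13 reads in EpiLC from ESC and none in PGCLC, at least 4.53-fold lower. From gPSC4, Hoxd12 had 9 reads and Hoxd13 13 in EpiLC with none in PGCLC, at least 3.66-fold and at least 5.28-fold lower. All these bounds use the floor of 3 reads over the group. The Hoxd sum was 20.3 ± 6.09 and 18.2 ± 3.33 FPKM in PGCLC of the 2 origins (SD, n = 3), against 0.897 and 1.41 in EpiLC.

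Of the 19 HOX genes tested, 7 rose and 1 fell from EpiLC to PGCLC in the ESC origin. There 29.3% of all genes tested were called, 16.7% higher and 12.7% lower. In the gPSC4 origin 9 of the 19 rose and none fell, where 29.7% were called, 15.8% higher and 13.9% lower. Median differences were 0.69 and 1.01 over the HOX genes tested and 0.10 and 0.08 over all genes. Hoxc4 returned, at 3.71, 3.93 and 3.52 FPKM from ESC (2.10, adjusted p = 3e-05) and at 0.977, 6.23 and 4.63 from gPSC4 (1.83, adjusted p = 0.00014). Hoxc5, its neighbour, was at 6.14, 0.85 and 10.4 FPKM from ESC (2.13, adjusted p = 0.00036) and at 1.96, 1.91 and 3.87 from gPSC4 (1.47, adjusted p = 0.0074). The spread within the ESC origin was wide for Hoxc5 and narrow for Hoxc4. Hoxc12 and Hoxc13 stayed low: Hoxc12 was at 0.0854 FPKM in 1 of 6 PGCLC libraries with no read in the other 5, and Hoxc13 at 0.802, 0.144 and 0 and at 0.0605, 0 and 0.

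The remaining calls were of lower genes. From ESC, Hoxc8 (1.45, adjusted p = 0.018) and Hoxc9 (1.13, adjusted p = 0.0053) rose. Hoxc8 lost its call without PGCLC library 2 or 3 or EpiLC library 3 (1.34, 1.11 and 1.20) and Hoxc9 without PGCLC library 2 (0.93). From gPSC4, Hoxc6 (1.29, adjusted p = 7.2e-05), Hoxc10 (1.14, adjusted p = 0.00073), Hoxa10 (1.04, adjusted p = 0.0081) and Hoxb7 (1.03, adjusted p = 0.025) rose. The groups overlapped for Hoxb7, which was lost without EpiLC library 1 or 3 or PGCLC library 2 or 3 (0.80, 0.89, 1.00 and 0.68). Hoxa10 was lost without EpiLC library 1 or 3 or PGCLC library 2 (0.98, 0.98 and 0.96).

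Between the origins, no HOX gene was called in PGCLC or in the size of the step from EpiLC, where 0.313% of all genes (0.0925% higher and 0.22% lower from gPSC4) and 0.0854% (0.0498% and 0.0356%) were called. By limma 2 of 19 HOX genes had an unadjusted p under 0.05 in each, Hoxb7 and Hoxc10. Of all 14059 genes 1973 and 1627 had one. Voom on the recovered reads called no HOX gene. Hoxb7 was at 0.33, 0.435 and 0 FPKM in PGCLC from ESC and at 0.64, 1.96 and 3.6 from gPSC4 (1.18, SE 0.38, adjusted p = 0.16). Hoxc10 averaged 0.408 FPKM from ESC and 1.39 from gPSC4 (0.75, SE 0.25, adjusted p = 0.18). The groups were apart in both, which is no check, because the genes were picked by their p in this same comparison.

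**Figure D5:**
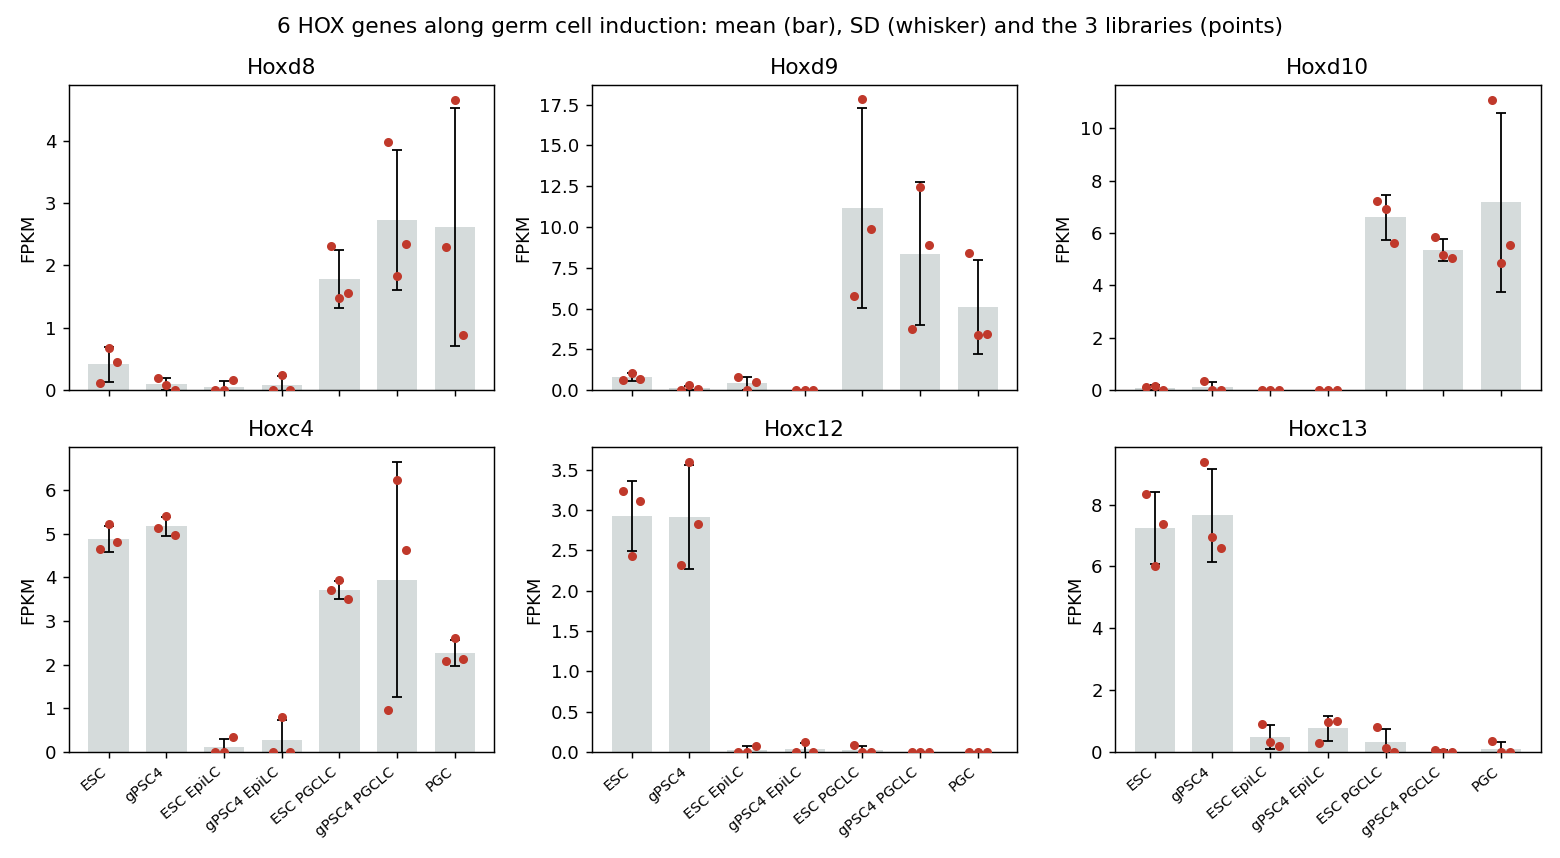
Each panel is 1 HOX gene; the y axis is FPKM, the bars are means, the whiskers SDs and the points the 3 libraries of a group. Hoxd8, Hoxd9 and Hoxd10 are near 0 in stem cells and EpiLC and high in PGCLC and PGC, Hoxc12 and Hoxc13 are high in ESC and gPSC4 alone, and Hoxc4 is lowest in EpiLC.

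In PGC the same 3 Hoxd genes were present. Hoxd10 was at 11.1, 4.86 and 5.55 FPKM in PGC, Hoxd9 at 8.4, 3.4 and 3.46, and Hoxd8 at 2.3, 4.66 and 0.882. The first PGC library was the highest for Hoxd10 and Hoxd9, and the PGC and PGCLC ranges overlapped for each of the 3. The HOX total was 44.2 ± 10.8 FPKM in PGC, 46.9 ± 6.57 in PGCLC from ESC and 39.7 ± 11.1 in PGCLC from gPSC4 (SD, n = 3). No HOX gene was called between PGC and PGCLC of either origin, where 0.427% (0.0854% higher, 0.341% lower) and 0.576% (0.185% higher, 0.391% lower) of all genes were called. By limma 5 and 4 of 19 HOX genes had an unadjusted p under 0.05, against 1948 and 1848 of all 14059 genes. Among these HOX genes was Hoxb7 against the ESC origin (2.27, 1.59 and 3.52 FPKM in PGC, log2 difference 1.44, SE 0.38, adjusted p = 0.076). The groups of Hoxb7 did not overlap, which is no check, because it was picked by its p in this same comparison. Hoxd9 differed by −0.97 between PGC and PGCLC from ESC (adjusted p = 0.25), with overlap, and voom on the recovered reads called no HOX gene in either comparison.

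Against ESC, 4 of the 19 HOX genes tested were higher in PGC and 3 lower. Of all genes tested 31.1% were called, 16.4% higher and 14.7% lower. Higher were Hoxd10 (2.83, SE 0.23, adjusted p = 3.4e-09), Hoxd9 (1.67, SE 0.39, adjusted p = 0.00098), Hoxc5 (4.96 against 1.11 FPKM, 1.5, adjusted p = 0.0062) and Hoxd8 (1.23, adjusted p = 0.002). Without PGC library 2 the difference of Hoxd8 was 0.84, which ended its call. Lower were Hoxc13, at 0.347, 0 and 0 FPKM in PGC (−2.89, adjusted p = 1.2e-08), Hoxc12, with no read in PGC against 166 reads over ESC (adjusted p = 1.3e-08, at least 32.2-fold lower), and Hoxb13, with no read against 80 (adjusted p = 0.032, at least 15.5-fold lower). Hoxb13 lost its call in each fit that left out a PGC library or ESC column 1 or 3, with differences of −1.11 to −1.26. Hoxc4 was at 2.08, 2.62 and 2.12 FPKM in PGC against 4.64, 5.22 and 4.8 in ESC, a difference of −0.85 that fell short of 1 log2.

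The libraries of PGC and PGCLC resembled each other across all genes. Pearson's r of log2(FPKM + 1) averaged 0.973 between PGC and PGCLC from ESC and 0.971 between PGC and PGCLC from gPSC4, against 0.978 within PGC, 0.974 within PGCLC from ESC and 0.969 within PGCLC from gPSC4, a description across genes, which are not replicates. PGC and PGCLC libraries were thus about as alike as libraries of 1 PGCLC group, and whether each library holds the cells of its label was not tested. Germ cell markers were at 1 FPKM or more for 8 of 8 genes in each group, with sums of 3889 to 3926 FPKM in PGC, 3632 to 3910 in PGCLC from ESC and 3545 to 3592 from gPSC4, against 65.3 to 88.1 in EpiLC. The 8 genes listed for the fetal gonad soma, the tissue around the germ cells of the embryonic gonad, summed to 193 to 217 FPKM in PGC, 175 to 202 and 167 to 194 in PGCLC, 36.3 to 48.1 and 30.6 to 36.9 in EpiLC and 5.36 to 6.51 in ESC. In PGC and PGCLC 7 of the 8 were at 1 FPKM or more in every library and Foxl2 was at 0.559 FPKM or less. In EpiLC nearly the whole sum was Wt1, at 39.1 and 32.4 FPKM on average. The 9 posterior mesoderm genes summed to 58.8 to 71.4 FPKM in PGC, 20.4 to 69.6 and 21.8 to 79.98 in PGCLC and 4.93 to 14.3 and 5.73 to 8.36 in EpiLC. Most of it was Tbx4, a gene of the hindlimb and genital region, at 58.5 FPKM on average in PGC and 24.7 and 32.5 in PGCLC. In PGC and in PGCLC of each origin, 3 of the 9 were at 1 FPKM or more in every library. Msgn1 and Foxf1 were at 0 in every PGC and PGCLC library. In PGC T was also at 0 in every library and Mesp1 under 0.5. The 8 genes of endothelium and blood summed to 1057 to 1111 FPKM in PGC, 1040 to 1207 and 1032 to 1159 in PGCLC, and 7.71 to 12.3 and 12.97 to 15.04 in EpiLC. Most of that sum was the embryonic globins Hbb-y and Hba-x, at 519 and 396 FPKM on average in PGC, 601 and 397 in PGCLC from ESC and 569.8 and 345 in PGCLC from gPSC4. Fibroblast markers summed to 74.6 to 80.1 FPKM in PGC and 84.3 to 96.1 and 68.2 to 91.3 in PGCLC. Of these markers Dpt and Thy1 were under 0.5 in every PGC and PGCLC library, with Thy1 at 0 in all PGCLC libraries. Twist1 was under 0.5 in every library of PGC and of PGCLC from ESC. All these sums were higher in PGC and PGCLC than in EpiLC, as were Hoxd8, Hoxd9 and Hoxd10, and their part in those levels was not tested.

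Genes that act with or on HOX genes also changed between EpiLC and PGCLC. Of 11 TALE cofactors 4 rose and 2 fell in the ESC origin and 5 rose and 2 fell in the gPSC4 origin, with Meis1 at 1.20 and 12.4 FPKM (2.66) and at 0.360 and 22.2 (4.15). Of 13 upstream genes 4 rose and 2 fell, and 6 rose and 2 fell, led by Aldh1a2, which makes retinoic acid (0.05 and 17.4 FPKM, 4.13, and 3.85 in the gPSC4 origin). Rarg, a retinoic acid receptor, fell by 2.90 and 2.74 on the log2 scale, and Rarb, another receptor, rose by 2.37 and 2.32. Cdx1 rose by 2.27 and 3.15, and Cdx4 had differences of −2.15 and −2.54. Of 32 Polycomb genes 6 rose and 4 fell, and 5 rose and 4 fell, with Phf19 up by 4.10 and 3.58 and Phc1 down, at −2.59 and −2.92. Among 14 trithorax genes and H3K27 demethylases, 0 rose and 1 fell in the ESC origin and 2 rose and 2 fell in the gPSC4 origin, and Kdm6b, which removes the Polycomb mark, had differences of −2.02 and −2.07. Of 7 genes beside the clusters, none was called in the ESC origin and 1 rose in the gPSC4 origin. Between PGC and PGCLC from gPSC4, Cdx2 was the 1 upstream gene called (4.56 against 0.842 FPKM, 1.71, adjusted p = 0.048), and none of the 4 other lists had a call.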

How the data were processed

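Tables of transcript levels for 39 libraries in 14 groups were used as deposited. The authors deposited 5 tables, whose values are FPKM per the file headers. Per the submitters' processing notes, reads were processed on mm10 with some of Bowtie2, HISAT2, RSEM, R 3.4.2 and DESeq2, whose roles are not given. Per the labels' protocols, RNA came from a Qiagen kit and libraries from the NEBNext Ultra kit. Columns were matched to samples by name; both fibroblast columns and the 3 ESC columns could be matched to their group alone, and the acid columns read CS where the titles read CA. The fibroblast table without symbols was matched by Ensembl ID to GENCODE M21 (GRCm38), with 99.4% of IDs found. In the induction table, of 20354 genes 20184 gave whole reads within 0.001 reads (99.2% of genes above 0, 38 of 38 HOX genes).

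Tests used limma 3.58.1 in R 4.3.3 on log2(FPKM + 1) with all libraries of a table, group as the single term, empirical Bayes with a trend, two-sided, adjusted over 13266 genes (reprogramming), 13797 (lines) and 14059 (induction). Genes needed 1 FPKM in at least 2 libraries, 1 library and 3 libraries of these tables. Library sizes of the other tables are not given in the sources used here, so no interval that needs depth is printed. The fit was tested on simulated data. The members and lists were chosen with earlier results of these data known. Named genes were those called in any comparison, those with a mean of at least 5 FPKM in a group, and the highest level and highest paralog number of each cluster in granulosa cells and fibroblasts. From the other lists, up to 3 called genes were named by difference, and Rarb, Cdx1 and Cdx4 were added for the step to PGCLC. Comparisons that share a group are not set against each other. Alternatives were a pseudocount of 0.1, no filter, 2 scalings, voom on recovered reads, a fit without the trend, calls by adjusted p alone, fits on just the groups compared, the omission of each library in turn and a block for the replicate number. Figures were drawn with matplotlib 3.10.9. Of the genes counted, 1 HOX gene and 1 cofactor gene are not reported here by name.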

Additional observations from a re-analysis of the deposited data

How the results depend on the processing

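Of the alternative values of the counts and summed levels, 229 stayed within 1.5 times or within 1 SD of the value reported, 11 did not and 1 turned. With a pseudocount of 0.1, 4 HOX genes were called for day 28 against day 16 (all higher, among them Hoxd3, Hoxb13 and Hoxa7), 1 for crotonic acid (Hoxa11, lower), 8 for EpiLC against gPSC4, and 20 passed 1 log2 between ES and granulosa cells. With no minimum difference the counts were 8 for day 28 and 2 for crotonic acid. The summed HOX level of day 28 over day 16 went from 1.01 to 0.878 under median-ratio scaling and to 1.14 with FPKM scaled to an equal sum per library. Crotonic acid over none went from 0.796 to 0.836 under median-ratio scaling, and ES over granulosa cells from 0.732 to 0.711 under that scaling and to 0.699 with equal sums. The cause was not tested.

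With each library left out in turn, called HOX genes ranged from 0 to 1 for day 28 against day 16 (1 without the second day 16 library, the lone library then being assumed to vary like the other groups), 0 to 0 for crotonic acid, 12 to 14 for the lines, 5 to 7 and 4 to 6 for EpiLC from ESC and gPSC4, 6 to 8 and 7 to 12 for PGCLC from each, 5 to 7 for PGC against ESC, and 0 to 0 for the comparisons of origins, of PGC with PGCLC and of the step by origin. Genes past 1 log2 ranged from 22 to 23 for ES against the fibroblast and 13 to 13 against granulosa cells. Of 48 single calls, 35 held in every alternative run for them, and 36 of 681 values lost a call, none with a change of sign. Voom on recovered reads called 8 and 6 HOX genes for EpiLC, 9 and 12 for PGCLC and 8 for PGC against ESC. Quantile scaling moved the share of higher calls in the step by origin from 58.3% (7 higher, 5 lower) to 77.8% (7 higher, 2 lower), over all genes. Beside the calls already given, Hoxa10 and Hoxb7 in PGCLC from gPSC4 were at 0.99 and 0.98 under median-ratio scaling and 0.96 and 0.96 under quantile scaling. Hoxb7 had an adjusted p of 0.11 with the compared groups alone, and Hoxc8 in PGCLC from ESC one of 0.051 with a pseudocount of 0.1.

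Between cultured groups of the induction table, same-numbered libraries deviated together weakly, with correlations of 0.006 to 0.16, all positive. Between PGC and PGCLC they were −0.03 to 0.02. Among reprogramming cells they were 0.27 and 0.14, with only 2 pairs. The labels do not say whether same-numbered libraries share more than a number. With the replicate number as a block the counts were 5, 8 and 9 for EpiLC from gPSC4 and for PGCLC from ESC and gPSC4, the same as without it, and 0 in each other comparison run with it. No paired analysis was possible because, for comparisons with ESC, its columns were matched to the group and not to a numbered sample, and, in the line table, lines share no replicate numbers with granulosa cells.

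Depth limits the lower genes: EpiLC libraries held 58 to 136 HOX reads, so levels there rest on few reads, and intervals and floors cover counting error only.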
